A study of Arabidopsis thaliana with 36 samples.

Results

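Rosette buds of a quintuple bZIP mutant of Arabidopsis thaliana were compared with rosette buds of a triple bZIP mutant across all genes. Every library labelled as 1 of these genotypes in this tissue was taken, which gave 3 quintuple and 3 triple mutant libraries out of 36 in the series. The series covers 3 genotypes (wild-type Col-0, triple mutant, quintuple mutant) in 4 tissues (rosette buds, flowers, sink leaves, source leaves), each with 3 biological replicates. All plants grew on soil with 16 h of light and 8 h of darkness at 60% humidity and 100 µmol m-2 s-1, untreated, until the primary inflorescence began to flower. The mutants are named by the number of bZIP genes affected and the series by the S1 group of these genes; the labels give neither the alleles nor the loci, whether a line is 1 clone, nor whether plants were pooled.

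S1 bZIP proteins are small basic leucine zipper transcription factors that pair with the larger C group bZIPs and act downstream of the energy-sensing kinase SnRK1. They are known for control of amino acid and sugar metabolism genes, among them proline dehydrogenase and asparagine synthetase, and sucrose represses the translation of several of them. Rosette buds are the axillary buds at the base of the shoot. Their outgrowth is held back by the transcription factor BRC1, which acts through the homeodomain genes HB21, HB40 and HB53 and the abscisic acid gene NCED3, and is favoured by sugar, cytokinin and nitrogen supply.

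The 6 libraries held 20011517 to 22780086 counts each. The quintuple libraries were less alike than the triple libraries by Pearson's r of log2(CPM + 1), where CPM are counts scaled to library size. This used genes with at least 10 counts in at least 3 of the 9 bud libraries. The r was 0.991 to 0.993 between triple libraries, and 0.949 for quintuple replicates 1 and 2, 0.901 for replicates 1 and 3 and 0.980 for replicates 2 and 3. Quintuple replicate 1 was closer to the triple libraries (r of 0.972 to 0.980) than to either other quintuple library, so every main count is given with and without it. The bud label was checked with BRC1 on a scale common to all 36 libraries. Wild-type buds held 22.97 ± 2.00 CPM (SD, n = 3), against 2.65 ± 0.50 in wild-type flowers and 0.35 ± 0.044 in wild-type sink leaves. Triple mutant buds held 11.55 ± 3.797 CPM against 2.281 ± 0.6281 in triple mutant flowers. Quintuple buds held 12.89 ± 2.449 CPM, against 24.32 ± 11.44 in quintuple flowers and 2.947 ± 2.334 in quintuple sink leaves. BRC1 therefore cannot check the bud label against flowers in the quintuple mutant, where flowers had the higher mean.

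Of 20262 genes tested, 1411 rose in the quintuple mutant (6.96% of those tested) and 143 fell (0.706%), by edgeR's quasi-likelihood test at a Benjamini-Hochberg adjusted p under 0.05. At least 2-fold changes made up 1226 of the rises and 69 of the falls. The adjusted p-values crowded under the threshold: apart from AT5G43450, at 0.0201, all of the other 1553 called genes lay between 0.0455 and 0.05, while 9098 genes had an unadjusted p under 0.05. Without quintuple replicate 1, 6765 of 20673 genes were called higher (32.7%) and 6818 lower (33%), and these included all 1554 genes called from 6 libraries, in the same direction. Without any 1 of the other 5 libraries no gene was called by edgeR, with 4813 to 6301 genes at an unadjusted p under 0.05; DESeq2 on all 6 libraries called 4455 higher and 3400 lower. Rises made up 90.8% of the calls with quintuple replicate 1 and 49.8% without it; with it kept, they made up 56.7% under DESeq2 and 7395 of 14852 calls under limma voom with sample quality weights, so the excess of rises was not shared by those tools. In whole buds, fewer cells of a type and less RNA per cell cannot be told apart. Below, "rose" and "fell" refer to the test on all 6 libraries, CPM values share 1 scale over the 9 bud libraries, and folds are from the 6-library test.

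Transcripts of all 5 S1 genes were detected in both mutants, and gene-level counts cannot show a small sequence change in them. bZIP1 (AT5G49450) was at 11.3, 53.1 and 73.3 CPM in quintuple replicates 1, 2 and 3 against 4.5, 3.99 and 4.16 CPM in the triple mutant. It rose 10.9-fold (log2 difference 3.45 ± 0.67 SE, adjusted p = 0.0455), with every quintuple library above every triple library and replicate 1 the lowest. The wild type held 4.31, 5.83 and 4.46 CPM, close to the triple mutant. None of the other 4 S1 genes passed. bZIP2 (AT2G18160) stood at 114, 120.3 and 104 CPM against 127, 119 and 111 CPM, with groups that overlapped. bZIP11 (AT4G34590) (GBF6 in RefSeq) stood at 27.3, 13.1 and 14.4 CPM against 17.5, 26.3 and 22.4, bZIP53 (AT3G62420) at 80.6, 65.3 and 76.2 CPM against 60.3, 59 and 71.1, and bZIP44 (AT1G75390) at 7.54, 7.53 and 9.35 CPM against 5.09, 5.28 and 4.07. Of these, bZIP44 did not overlap between groups and missed the threshold (log2 difference 0.77 ± 0.19, adjusted p = 0.056); without quintuple replicate 1 it passed (adjusted p = 0.0102), and bZIP11 was then called lower (-0.69 on the log2 scale, adjusted p = 0.015).

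The 4 C group genes, whose products are partners of the S1 proteins, gave no call. bZIP25 (AT3G54620) was at 70.2, 106 and 131 CPM against 52.4, 55.2 and 51.9 CPM, with no overlap and an adjusted p of 0.053. bZIP9 (AT5G24800) was at 28.6, 51.3 and 66.7 CPM against 25.2, 26.6 and 21.5 CPM (adjusted p = 0.0703). bZIP10 (AT4G02640) reached an adjusted p of 0.135 and bZIP63 (AT5G28770) one of 0.526, and in both of these genes the groups overlapped. With quintuple replicate 1 left out, bZIP25, bZIP9 and bZIP10 were called higher, with log2 differences of 1.15, 1.26 and 0.64.

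Some genes stood at 1 level in all 3 quintuple libraries, replicate 1 included. FSD1 (AT4G25100), which encodes an iron superoxide dismutase of the chloroplast, was at 256, 256 and 276 CPM in the quintuple mutant and at 3.95, 13.1 and 6.05 CPM in the triple mutant. The 2 groups were far apart and the difference was 34.3-fold (log2 5.10 ± 0.47 SE, adjusted p = 0.0455); the wild type, at 5.1, 3.58 and 12.4 CPM, lay with the triple mutant. AT5G43450, annotated as a 2-oxoglutarate and iron-dependent oxygenase, had the smallest p of all genes, at 20.9, 22.5 and 22.5 CPM against 3.81, 4.34 and 4.12 CPM (log2 difference 2.43 ± 0.14). AT1G13480, of unknown function, was at 2.37, 2.06 and 2.52 CPM against 0.0494, 0.0498 and 0.0968 CPM, which rests on 152 counts against 4 and gives a count ratio of 35.5 (95% interval 13.6 to 132.1, counting error only). NUDT17 (AT2G01670), a nudix hydrolase, was at 34.1, 47.5 and 52.3 CPM against 9.14, 10.2 and 10.6 CPM. GRP3S (AT2G05380), a glycine-rich protein gene, was at 387, 470.1 and 442 CPM against 118, 118 and 98.3 CPM. ARL (AT2G44080), an ARGOS-like gene of organ growth, was at 20.6, 20.8 and 19.1 CPM against 6.18, 7.13 and 6.78 CPM. These 3 rose by 2.17, 1.97 and 1.59 on the log2 scale, each at an adjusted p of 0.0455, and AT3G02910, the sixth gene of smallest p among the rises, rose by 1.695.

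The falls of smallest p were taken from called genes without overlap, so all 3 quintuple libraries lay below the triple libraries by that choice. PRODH1 (AT3G30775) encodes proline dehydrogenase, which starts proline breakdown in mitochondria. It was at 13.5, 6.09 and 5.17 CPM in the quintuple mutant, 82.5, 90.0 and 75.9 CPM in the triple mutant and 27.8, 44.9 and 30.9 CPM in the wild type, so the mutants lay on opposite sides of the wild type. The difference between the mutants was 9.97-fold (log2 -3.32 ± 0.38, adjusted p = 0.0455). Against the wild type, the triple mutant was higher (1.25 on the log2 scale, adjusted p = 0.00404) and the quintuple mutant differed by -2.08 (adjusted p = 0.0532), 2 comparisons that share the wild-type libraries. MIOX2 (AT2G19800), a myo-inositol oxygenase of inositol breakdown, was at 0.296, 0.479 and 0.712 CPM against 5.93, 5.68 and 5.67 CPM in the triple mutant and 0.61, 1.13 and 0.413 CPM in the wild type. It fell by 11.5-fold, and here the quintuple mutant lay near the wild type (-0.54 on the log2 scale, adjusted p = 0.501) while the triple mutant stood above it (2.99, adjusted p = 0.00236). BT5 (AT4G37610), a BTB and TAZ domain protein gene, showed the same order, with 3.47, 4.99 and 5.37 CPM against 19.9, 15 and 17.1 CPM in the triple mutant and 6.93, 11.7 and 5.56 CPM in the wild type.

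**Figure D1:**
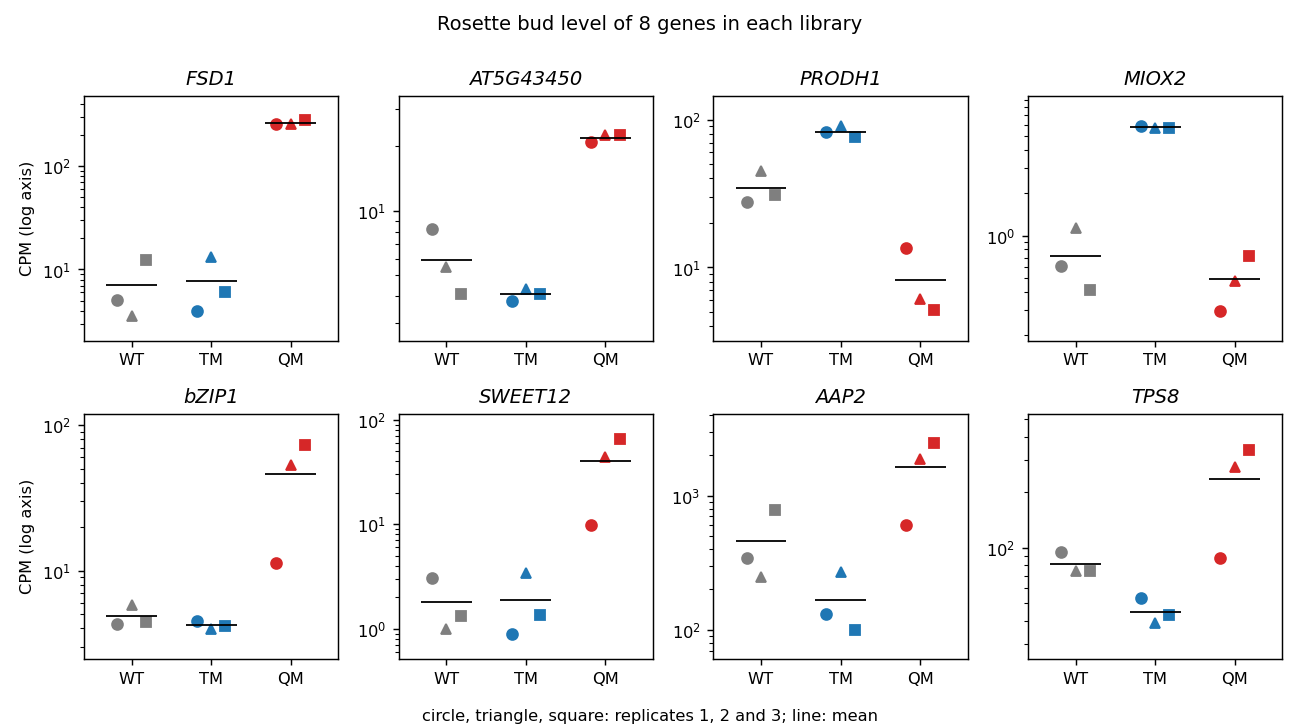
Level of 8 genes in CPM (log axis) in each of the 9 bud libraries of the wild type (WT), triple mutant (TM) and quintuple mutant (QM), 1 marker per library and a line at the mean of 3. FSD1 and AT5G43450 sit at 1 level in all 3 quintuple libraries, PRODH1 and MIOX2 are low in all 3, and in bZIP1, SWEET12, AAP2 and TPS8 quintuple replicate 1 lies between the triple libraries and the other two quintuple libraries.

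Upstream sequences are shown for 3 of these genes as examples in which all 3 quintuple libraries lay well apart from the triple libraries. They are the 250 bases before the annotated gene start in RefSeq's TAIR10.1 assembly, 5′ to 3′ on the gene's strand, and capitals mark matches on either strand to ACGT (the core of bZIP sites), CACGTG (the G-box, which holds the core), ACTCAT (the motif described for S1 bZIP binding at proline dehydrogenase) and GGNCCC (a motif of TCP factors). The PRODH1 window (chr3:12451557-12451806, minus strand) holds ACTCAT 24 bases before the gene start, where the strand shown reads ATGAGT, and the window also has 2 ACGT cores. The FSD1 window (chr4:12887012-12887261, minus strand) holds 2 ACGT cores, and that of AT5G43450 (chr5:17458981-17459230, minus strand) holds 1. The MIOX2 window holds none of the 4.
PRODH1: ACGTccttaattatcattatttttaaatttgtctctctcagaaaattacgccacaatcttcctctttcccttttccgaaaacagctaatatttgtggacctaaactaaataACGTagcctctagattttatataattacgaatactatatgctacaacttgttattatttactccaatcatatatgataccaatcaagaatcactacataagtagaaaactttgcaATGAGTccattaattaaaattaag
FSD1: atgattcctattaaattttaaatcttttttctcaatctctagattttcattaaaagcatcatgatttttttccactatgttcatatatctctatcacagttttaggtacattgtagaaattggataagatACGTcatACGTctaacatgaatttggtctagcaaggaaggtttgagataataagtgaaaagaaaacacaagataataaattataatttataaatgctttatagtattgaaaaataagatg
AT5G43450: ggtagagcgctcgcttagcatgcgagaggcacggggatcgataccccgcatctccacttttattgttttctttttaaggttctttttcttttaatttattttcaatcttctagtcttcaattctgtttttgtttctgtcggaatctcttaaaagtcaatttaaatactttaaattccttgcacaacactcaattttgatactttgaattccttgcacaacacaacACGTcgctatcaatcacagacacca
Over the 27443 windows of this length before nuclear protein-coding genes, 44.1% hold the ACGT core, 6.49% hold the G-box, 12.3% hold the ACTCAT motif and 7.35% hold the TCP motif. The motif ACTCAT was in 11.9% of the 1366 windows of genes that rose, 15.2% of the 138 windows of genes that fell and 11.8% of the 19718 windows of tested genes. The ACGT core was in 50.7%, 47.8% and 44.2% of the same windows, the G-box in 5.86%, 3.62% and 7.3%, and the TCP motif in 6.15%, 12.3% and 8.31%. A match describes the letters only.

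The largest rises were of genes close to 0 in the triple mutant and in the wild type. The 10 largest, among genes that reached 2 CPM without overlap, included AT4G28790, a bHLH factor gene, at 0.72, 4.03 and 13.4 CPM against 0, 0.0997 and 0 CPM. This rests on 384 counts against 2, a ratio of 179.5 (95% interval 49.4 to 1488). CHIA (AT5G24090), a chitinase gene, was at 2.25, 8.34 and 24.4 CPM against 0.0988, 0.199 and 0.0968 CPM (85.5-fold, adjusted p = 0.0455). AT5G10580, of unknown function, was at 1.36, 11 and 16.3 CPM against 0.0988, 0.15 and 0.0968 CPM. In all 3 genes quintuple replicate 1 was the lowest of its group, and it lay above every triple library by the rule of choice. The others were AT1G11925 (a Stig1 family gene), AT1G26410 (a berberine bridge enzyme relative), AT5G39580 (a peroxidase), AT1G02620 (a small GTP-binding protein), AT5G43570 (a protease inhibitor), AT1G49900 (a zinc finger factor) and AT1G53625, which held 1 to 4 counts over the triple libraries and 163 to 304 over the quintuple libraries.

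Among the largest falls was CYP96A15 (AT1G57750), whose cytochrome P450 makes the alcohols and ketones of stem wax, at 1.02, 3.26 and 0.997 CPM against 19.1, 31.9 and 33 CPM (15.9-fold lower, adjusted p = 0.0455); all 3 quintuple libraries were below all triple and wild-type libraries. OCT3 (AT1G16390), an organic cation transporter gene, was at 4.28, 1.87 and 1.38 CPM against 18.3, 15.3 and 21.7 CPM. GDPD2 (AT5G41080), a glycerophosphodiester phosphodiesterase gene, was at 0.762, 0.623 and 1.19 CPM against 5.88, 4.64 and 5.04 CPM. SWEET16 (AT3G16690), a vacuolar sugar transporter gene, was at 0.635, 0.767 and 0.522 CPM against 2.22, 3.54 and 3.44 CPM. The other falls of this size were AT1G17345 (a SAUR-like gene), QQS (AT3G30720) (a starch regulator gene), AT5G17040 (a glycosyltransferase) and AT4G14650, each under 9 CPM in every mutant library. All of these falls were chosen among genes without overlap between the mutants.

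Several genes of sugar transport and cleavage rose. SWEET11 (AT3G48740) and SWEET12 (AT5G23660) encode the plasma membrane exporters that release sucrose for phloem loading. Both rose, 2 of the 3 clade III SWEET genes with enough counts, where 6.96% of all genes rose. SWEET12 was at 9.87, 44.5 and 65.3 CPM against 0.889, 3.44 and 1.36 CPM (21.2-fold, log2 4.40 ± 0.85, adjusted p = 0.0455). SWEET11 was at 6.57, 15.5 and 22.5 CPM against 1.58, 2.44 and 2.76 CPM (6.59-fold, adjusted p = 0.0455). In both, the wild type, at 0.988 to 3.05 and 2.31 to 4.4 CPM, overlapped the triple mutant. The third, SWEET13 (AT5G50800), was at 1.57, 1.01 and 0.665 CPM against 1.28, 0.698 and 1.695 CPM (adjusted p = 0.784). SWEET9 had no count in any bud library, SWEET10 and SWEET15 had 6 and 18 counts over the quintuple libraries against 9 and 7, and SWEET14 had 2 against 27, a ratio of 14.4 in favour of the triple mutant (95% interval 3.63 to 125.3).

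Of 10 sucrose and hexose carriers, STP13 (AT5G26340), a hexose importer gene, rose (33.7, 79.8 and 127 CPM against 14, 13.3 and 14.6 CPM) and none fell, a count near the 6.96% of all genes that rose. Without quintuple replicate 1, 7 passed as higher and 1 as lower, where 32.7% and 33% of all genes did. Of 10 sucrose cleavage genes, 2 rose: SUS3 (AT4G02280), a sucrose synthase, at 48.9, 146 and 260.2 CPM against 11.5, 9.42 and 10.4 CPM (14.6-fold), and CWINV1 (AT3G13790), a cell wall invertase, at 43.2, 69.6 and 63.2 CPM against 11.4, 16.4 and 18 CPM (3.86-fold). The SUS3 libraries of the triple mutant were also below the wild type (-1.34 on the log2 scale, adjusted p = 0.00707).

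Of 18 trehalose pathway genes, 4 rose and none fell, where 6.96% of all genes rose and 0.706% fell. These enzymes make and remove trehalose 6-phosphate, the sucrose signal, and the class II synthase proteins are thought to be regulatory. TPS8 (AT1G70290) was at 88.1, 276 and 340.2 CPM against 53.2, 38.7 and 42.8 CPM (5.26-fold, adjusted p = 0.0464). TPS10 (AT1G60140) was at 97.5, 292 and 305 CPM against 56.3, 55.2 and 44.2 CPM (4.49-fold). Of the phosphatases, TPPB (AT1G78090) was at 2.42, 3.88 and 2.94 CPM against 0.494, 0.249 and 0.436, and TPPH (AT4G39770) at 3.3, 6.81 and 8.26 CPM against 1.14, 1.59 and 1.02. The groups did not overlap in any of these 4. Leaving out quintuple replicate 1, 10 of the 18 passed as higher and 2 as lower, where 32.7% and 33% of all genes did.

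Genes of inositol and raffinose metabolism gave 1 rise and 2 falls out of 8, where 6.96% of all genes rose and 0.706% fell. GOLS2 (AT1G56600), a galactinol synthase gene of the drought response, was at 23.3, 52.4 and 158 CPM against 10.5, 4.99 and 5.71 CPM (11.1-fold higher, adjusted p = 0.0485). MIOX4 (AT4G26260) fell with MIOX2, at 0.0424, 0.0479 and 0.095 CPM against 0.642, 1.05 and 1.06 CPM, which rests on 4 counts against 56. None of 18 starch genes passed. Without quintuple replicate 1, 2 passed as higher and 12 as lower, where 32.7% and 33% of all genes did.

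Of the nitrogen transport list, 10 of 21 tested transporters of nitrate, ammonium and amino acids rose and none fell, against 6.96% and 0.706% of all genes. Over the 21 the median log2 difference was 1.37, against -0.0019 over all genes tested. AAP2 (AT5G09220), an amino acid permease that moves amino acids from xylem to phloem, was the most abundant, at 605, 1860 and 2465 CPM against 131, 271 and 99.3 CPM (9.91-fold, log2 3.31 ± 0.65, adjusted p = 0.0455). Its quintuple libraries did not overlap the triple libraries, whereas the wild type, at 249 to 778 CPM, spanned part of both ranges. AAP3 (AT1G77380) was at 7.92, 9.44 and 10.2 CPM against 3.21, 2.74 and 3.63 CPM, and AAP4 (AT5G63850) and AAP5 (AT1G44100), of the same importer family, rose by 1.69 and 0.87 on the log2 scale. The importer gene LHT1 (AT5G40780) was at 22.4, 27.1 and 36.4 CPM against 4.94, 7.73 and 10.9 CPM. Among the exporters, UMAMIT28 (AT1G01070) was at 39.6, 71.4 and 73.5 CPM against 8.75, 9.47 and 3.83 CPM, UMAMIT14 (AT2G39510) at 7.5, 12 and 5.65 CPM against 1.24, 1.1 and 0.726, and UMAMIT29 (AT4G01430) at 4.32, 11.1 and 14.1 CPM against 0.889, 1.84 and 0.387. Of the nitrate transporters, NRT1.8 (AT4G21680), which unloads nitrate from xylem, was at 15.1, 40.1 and 46 CPM against 1.98, 4.04 and 4.45 CPM and NRT2.1 (AT1G08090), the high-affinity uptake carrier of roots, at 2.33, 3.07 and 8.69 CPM against 0.346, 0.598 and 0.0484. In the 5 libraries other than quintuple replicate 1, 19 of the 21 passed as higher and 1, NRT1.7 (AT1G69870), as lower, against 32.7% and 33% of all genes.

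Of 20 genes of nitrogen and amino acid metabolism, PRODH1 fell and no gene rose, where 0.706% of all genes fell and 6.96% rose. ASN1 (AT3G47340), the asparagine synthetase known as a target of S1 bZIPs, was at 106, 239.6 and 285 CPM against 109.7, 118 and 121 CPM, so quintuple replicate 1 lay just under the triple libraries and the other two above (log2 0.86 ± 0.35, adjusted p = 0.108; adjusted p = 0.000298 without replicate 1). GAT1_2.1 (AT1G15040), a glutamine amidotransferase gene tied to branching, was at 5.34, 7.38 and 7.93 CPM against 4.15, 6.78 and 6.34 CPM (adjusted p = 0.442). Without quintuple replicate 1, 6 of the 20 passed in each direction, near the 32.7% and 33% of all genes.

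Of 16 cytokinin genes, 4 rose and none fell, where 6.96% of all genes rose and 0.706% fell. IPT3 (AT3G63110), a cytokinin synthesis gene of the phloem, was at 13.4, 27.4 and 24.5 CPM against 3.06, 6.23 and 2.86 CPM (5.4-fold), and IPT5 (AT5G19040), of the same family, at 3.6, 9.01 and 27.7 CPM against 0.247, 0.798 and 0.339 CPM. The oxidase genes CKX5 (AT1G75450) and CKX2 (AT2G19500), whose products break cytokinin down, rose as well, CKX5 at 13.9, 17.1 and 22.6 CPM against 7.61, 9.47 and 8.04 CPM and CKX2 at 0.551, 2.16 and 4.27 CPM against 0.0988, 0.15 and 0.0484 CPM. Synthesis and breakdown genes were thus both among the calls. With quintuple replicate 1 left out, 6 of the 16 passed as higher and 5 as lower, near the 32.7% and 33% of all genes. The latter included the response regulators ARR7 (AT1G19050) (24.3, 8.77 and 2.61 CPM against 17, 22.6 and 20.04) and ARR15 (AT1G74890) (7.71, 1.44 and 0.617 CPM against 4.25, 8.47 and 6.63), in which quintuple replicate 1 lay above its group mates.

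Of 12 auxin response genes, 2 genes of auxin-conjugating enzymes rose and none fell, where 6.96% of all genes rose and 0.706% fell. The median log2 difference was -0.22, with 7 of the 12 below 0. GH3.5 (AT4G27260) was at 160.1, 356 and 483 CPM against 77, 48 and 38.1 CPM (6.17-fold) and GH3.6 (AT5G54510) at 212, 447 and 228 CPM against 122, 103 and 83.2 CPM (2.9-fold). Without quintuple replicate 1, 5 of the 12 passed as higher and 3 as lower, near the 32.7% and 33% of all genes. Of 6 gibberellin genes, GA2OX2 (AT1G30040), which inactivates gibberellin, rose (22.7, 34.5 and 33.6 CPM against 14.7, 8.28 and 12 CPM). The wild type, at 34.9, 28.2 and 34.5 CPM, lay near the quintuple mutant, and the triple mutant was below it (-1.49 on the log2 scale, adjusted p = 0.00374 by edgeR). Among 8 strigolactone genes only MAX1 (AT2G26170), a cytochrome P450 of strigolactone synthesis, rose (68, 100.2 and 122 CPM against 43, 49.1 and 52.5 CPM, adjusted p = 0.0498). MAX4 (AT4G32810), the carotenoid cleavage enzyme before it, was at 2.92, 10.3 and 29 CPM against 1.88, 1.54 and 1.695 CPM (adjusted p = 0.0585). Leaving out quintuple replicate 1, 7 of 9 strigolactone genes passed as higher and 1 as lower, where 32.7% and 33% of all genes did.

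Abscisic acid and dehydration genes were mixed. Of 27, CYP707A1 (AT4G19230), an abscisic acid hydroxylase gene, rose (12.6, 16.1 and 18.5 CPM against 8.11, 7.38 and 9.39 CPM), and the cold and dehydration protein genes KIN2 (AT5G15970) and COR15A (AT2G42540) fell. KIN2 was at 75, 55.1 and 62.7 CPM against 139, 123 and 159 CPM in the triple mutant and 310.1, 304 and 358 CPM in the wild type, and reads of KIN2 and its near-identical neighbour KIN1 may have been split between them. COR15A was at 5.97, 5.61 and 3.09 CPM against 16, 19.6 and 22.7 CPM. HB7 (AT2G46680), a homeodomain gene induced by abscisic acid, was at 23.7, 60.4 and 181 CPM against 13.1, 13.6 and 15.4 CPM (adjusted p = 0.0593), with most of the rise in replicates 2 and 3. In the 5 libraries other than quintuple replicate 1, 16 passed as higher and 5 as lower, against 32.7% and 33% of all genes.

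No member of the list of 11 bud dormancy and branching genes passed with all 6 libraries, while 7 passed as higher and 2 as lower without quintuple replicate 1. With 6 libraries 6.96% of all genes rose and 0.706% fell. Without that library 32.7% passed as higher and 33% as lower. BRC1 (AT3G18550) was at 12.4, 17.55 and 18.4 CPM in the quintuple mutant and 19.3, 11.3 and 11.5 CPM in the triple mutant, with groups that overlapped (log2 0.21 ± 0.27, adjusted p = 0.553; 0.35 and 0.247 without replicate 1). Both mutants were below the wild type, at 27.9, 24.9 and 30.0 CPM. HB21 (AT2G18550) was at 5.55, 12.4 and 18.5 CPM against 4.2, 3.04 and 3.63 CPM and did not overlap (adjusted p = 0.0554). HB53 (AT5G66700) was at 5.46, 13.1 and 25.7 CPM against 4.74, 3.24 and 2.23 CPM (adjusted p = 0.063) and HB40 (AT4G36740) at 2.16, 2.88 and 6.88 CPM against 1.68, 1.94 and 1.4 (adjusted p = 0.099). NCED3 (AT3G14440) was at 4.07, 9.88 and 73.1 CPM against 2.67, 2.34 and 1.99 CPM (adjusted p = 0.0695), with replicate 3 far above the other two. In HB21, HB53, HB40 and NCED3 the triple mutant was below the wild type (-1.71, -1.700, -2.15 and -2.43 on the log2 scale, adjusted p = 0.00254, 0.00458, 0.00365 and 0.0038). The dormancy-associated gene DRM1 (AT1G28330) was at 156, 307 and 514 CPM against 178, 131 and 107 CPM (adjusted p = 0.088), and DRM2 (AT2G33830) at 74.1, 243 and 347 CPM against 53.8, 59.2 and 46.1 CPM (adjusted p = 0.0561). SPL15 (AT3G57920), a regulator of phase change and branching, was at 6.74, 1.82 and 0.997 CPM against 15.8, 11.8 and 12.8 CPM (adjusted p = 0.0756), and SPL9 (AT2G42200) at 22.7, 9.25 and 5.6 CPM against 42.9, 32 and 39.2 CPM.

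Meristem genes gave no call among 16 either, and STM (AT1G62360), which keeps meristem cells undifferentiated, was at 56.7, 129 and 175 CPM against 37.8, 44 and 28.5 CPM (adjusted p = 0.053). Of 12 flowering genes, SOC1 (AT2G45660), a floral integrator, rose (34.3, 28.9 and 37.8 CPM against 22.5, 19.8 and 20.3 CPM, 1.62-fold), where 6.96% of all genes rose. None of 9 floral organ identity genes passed. The petal and stamen gene PI (AT5G20240) was at 1.91, 0.431 and 0.095 CPM against 5.88, 3.04 and 2.76 CPM (adjusted p = 0.102), and AP3 (AT3G54340) at 3.01, 0.575 and 0.0475 CPM against 4.3, 2.34 and 2.71 CPM (adjusted p = 0.311). Without quintuple replicate 1, 7 floral organ genes passed as lower and 1 as higher, where 33% and 32.7% of all genes did.

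Growth and photosynthesis genes were lower in quintuple replicates 2 and 3 than in replicate 1, by list medians from log2(CPM + 0.5) against the triple mutant mean. For DNA replication the medians were -0.52, -2.08 and -2.76 in quintuple replicates 1, 2 and 3 against -0.070 to 0.095 in the triple libraries, and for ribosomal proteins -0.21, -0.97 and -1.30 against -0.032 to 0.036. The groups did not overlap in 9 of 9 replication and 11 of 11 ribosomal protein genes, nor in 9 of 13 mitosis and 18 of 24 photosynthesis genes. The share of all tested genes without overlap was not counted, so these counts stand without a background. None of the 9 DNA replication, 13 mitosis, 11 ribosomal protein and 24 photosynthesis genes tested passed with 6 libraries, where 0.706% of all genes fell, and every one of them passed as lower without quintuple replicate 1, where 33% of all genes did. MCM6 (AT5G44635), a subunit of the replication helicase, was at 21.2, 6.38 and 4.13 CPM against 34, 30.3 and 31.9 CPM in the triple mutant and 14.8, 19.6 and 14.8 CPM in the wild type (log2 -1.59 ± 0.58, adjusted p = 0.0917; -2.62 and 0.00018 without replicate 1). The mitotic cyclin CYCB1;1 (AT4G37490) was at 11.7, 4.65 and 3.13 CPM against 24, 16.9 and 17.8 CPM (adjusted p = 0.0698). LHCA1 (AT3G54890), an antenna protein of photosystem I, was at 584, 206 and 85.5 CPM against 712, 863 and 938 CPM (adjusted p = 0.116). Median log2 differences with 6 libraries were -1.46 for replication, -1.18 for mitosis, -0.74 for ribosomal proteins and -1.12 for photosynthesis.

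The flavonoid pathway had the lowest median of any list, -2.28 over 12 genes. CHI (AT3G55120), chalcone isomerase, fell (18, 12 and 8.02 CPM against 40.0, 38.4 and 45.6 CPM, 3.25-fold, adjusted p = 0.0455). CHS (AT5G13930), chalcone synthase, the entry enzyme, was at 153, 75.4 and 5.46 CPM against 434, 409 and 603 CPM (adjusted p = 0.097), and FLS1 (AT5G08640), flavonol synthase, at 12.8, 1.92 and 0.332 CPM against 50.3, 40.6 and 50.1 CPM (adjusted p = 0.078). In all 3 genes replicate 1 was below the triple libraries and above replicates 2 and 3. All 12 passed as lower without it, where 33% of all genes did.

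**Figure D2:**
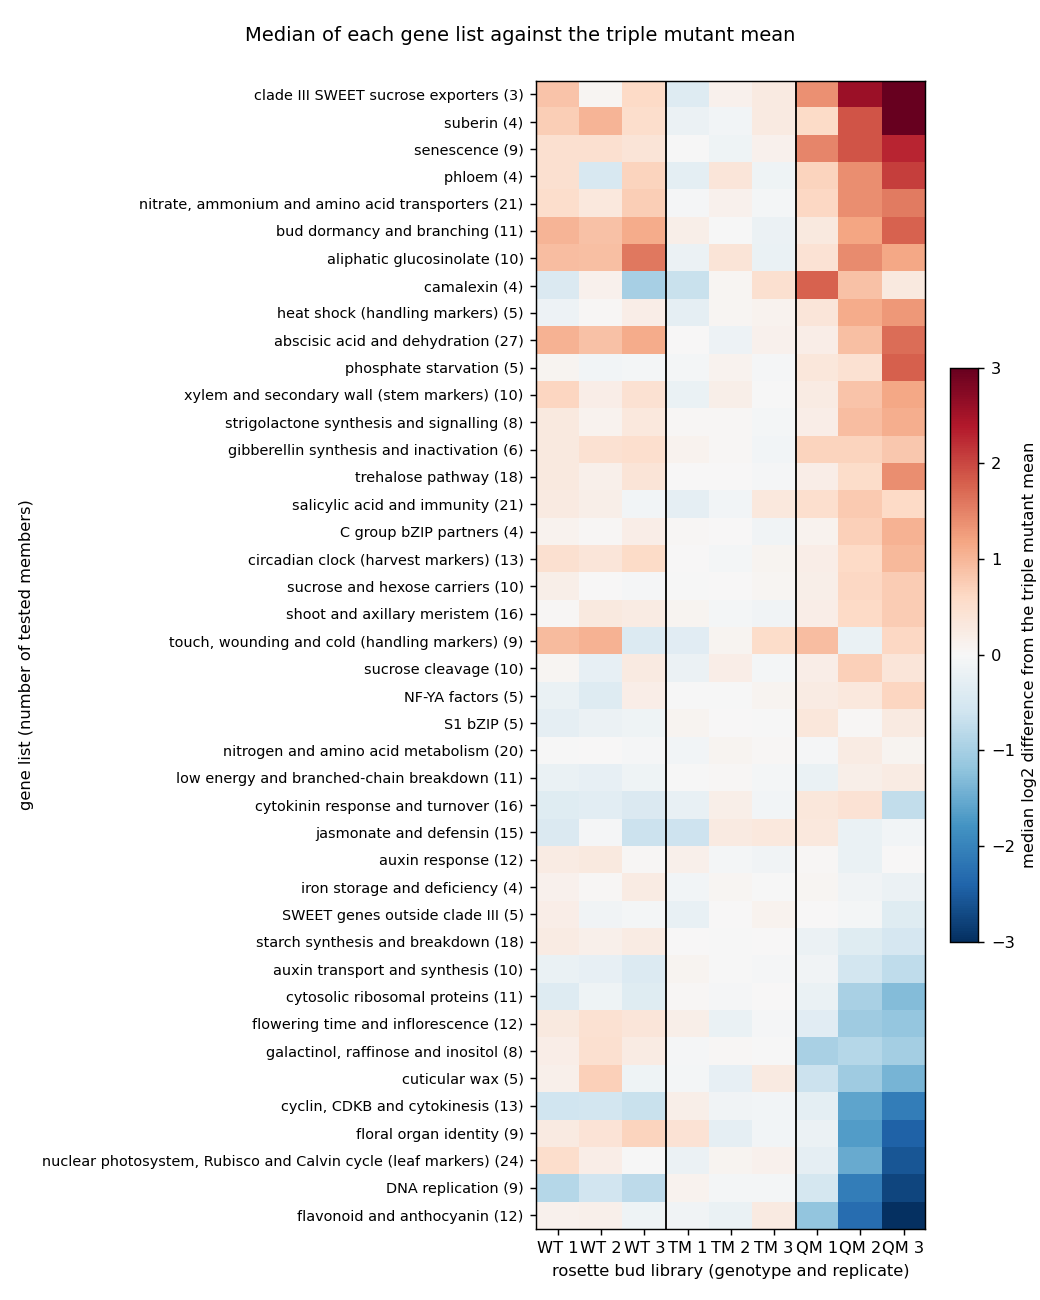
Median log2 difference of each gene list from the triple mutant mean in each of the 9 bud libraries (columns; WT wild type, TM triple mutant, QM quintuple mutant), from log2(CPM + 0.5); the number of tested members is in parentheses. Quintuple replicate 1 is paler than replicates 2 and 3 in most lists, with exceptions such as the raffinose list, at -0.98, -0.86 and -1.02 in replicates 1, 2 and 3, and the camalexin list, at 1.78, 0.87 and 0.30.

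Senescence genes rose in 5 of 9 cases and none fell, with a median log2 difference of 1.92, where 6.96% of all genes rose and 0.706% fell. ORE1 (AT5G39610), a NAC factor that starts leaf senescence, was at 15.9, 47 and 83.2 CPM against 5.39, 2.64 and 4.26 CPM (12-fold, adjusted p = 0.0455). SAG21 (AT4G02380) was at 164, 302 and 375 CPM against 34.4, 43.1 and 45.9 CPM, and NAP (AT1G69490), another NAC factor of senescence, at 36.2, 78.5 and 111 CPM against 15.7, 11.5 and 11.7. WRKY6 (AT1G62300) and NYE1 (AT4G22920), which acts in chlorophyll breakdown, rose by 1.90 and 1.39 on the log2 scale. The late marker SAG12 (AT5G45890) was at 112, 14.4 and 45.5 CPM against 0.445, 2.24 and 10.2 CPM and did not pass (adjusted p = 0.0737); there, quintuple replicate 1 was the highest.

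Aliphatic glucosinolate genes were higher in all 10 members by their fitted values, but only CYP79F2 (AT1G16400), which makes the aldoximes of this pathway, rose (7.37, 21.3 and 21.6 CPM against 1.19, 3.09 and 1.45 CPM); its counts are uncertain because CYP79F1 beside it is nearly identical. MAM1 (AT5G23010), the chain elongation enzyme, was at 175, 584 and 563 CPM against 94.5, 145 and 79.2 CPM (adjusted p = 0.053). All 10 passed as higher without quintuple replicate 1, where 32.7% of all genes did, against 6.96% with it. None of 4 suberin genes rose, and all 4 passed as higher without that library; GPAT5 (AT3G11430), an acyltransferase of suberin, was at 1.57, 5.37 and 15.1 CPM against 0.741, 0.748 and 1.21 CPM.

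Other lists gave 1 or 2 calls, where 6.96% of all genes rose and 0.706% fell. Of 4 iron genes tested, the metal and glutathione transporter gene OPT3 (AT4G16370) rose (323, 449.9 and 460.1 CPM against 140.2, 175 and 141 CPM), and of 21 immunity genes NPR3 (AT5G45110) and SAG101 (AT5G14930) rose by 0.91 and 0.67 on the log2 scale. Of 5 genes each, NF-YA8 (AT1G17590), a CCAAT-binding subunit gene, rose by 0.98 and CER3 (AT5G57800), of wax alkane synthesis, fell (log2 difference -1.02). A few markers of harvest time and handling rose. The evening-phase clock genes PRR5 (AT5G24470) and FKF1 (AT1G68050) rose (8.73, 18.8 and 28.4 CPM against 4.3, 3.19 and 5.08 CPM for PRR5), 2 of 13 tested clock genes. The heat shock gene HSP90.1 (AT5G52640) and the wounding-responsive WRKY40 (AT1G80840) rose too, 1 of 5 and 1 of 9 tested members of their lists. These counts rest on few genes and stand beside the 6.96% of all genes that rose. Fitted differences were above 0 in 9 and below 0 in 4 clock genes, 4 and 1 heat shock genes and 7 and 2 handling genes. The part of these markers in the other results was not tested.

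The summed CPM of xylem, phloem and leaf markers lay apart between the mutants, while the sums of floral organ and anther markers overlapped. A sum is set mostly by its most abundant members and does not describe each gene of a list. The summed level of 10 xylem genes was 193, 254 and 508 CPM in the quintuple libraries against 111, 147 and 124 CPM, and 2 rose, the secondary wall cellulose synthases CESA7 (AT5G17420) and CESA4 (AT5G44030). Of 4 phloem genes, summing to 247, 417 and 648 CPM against 121, 197 and 127 CPM, PP2-A1 (AT4G19840) rose, where 6.96% of all genes rose. The 24 leaf photosynthesis genes summed to 38470, 18830 and 9204 CPM against 42720, 51160 and 51760 CPM. The 12 floral organ genes summed to 65.6, 55.9 and 47.9 CPM against 66.6, 57.3 and 60.7 CPM and the 11 anther genes to 19.1, 22.1 and 20.1 CPM against 25.1, 21.8 and 25.1 CPM; the anther regulator DYT1 had no count in any mutant library. By gene, fitted differences were negative in 7 and positive in 2 of the 9 floral organ genes tested, although the sums overlapped. The floral organ list medians were -0.1725, -1.6815 and -2.4246 in quintuple replicates 1, 2 and 3, against -0.2727 to 0.4451 in the triple libraries. Of the 10 xylem genes, 7 had positive and 3 negative fitted differences. The part of these tissues in the gene results was not tested.

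Where quintuple replicate 1 lay was measured over the genes called at least 2-fold from the other 5 libraries, on a scale with 0 at the triple mutant mean and 1 at the mean of quintuple replicates 2 and 3. This describes a library that those calls did not use, and no test was made of it. Over 3503 higher genes its median position was 0.379 (quartiles 0.252 and 0.52), and 96% of them lay on the quintuple side of the triple mean. Over 3466 lower genes the median was 0.21 (quartiles 0.134 and 0.308), with 92.8% on the quintuple side. Only 194 of the higher and 42 of the lower genes reached 0.8. By gene, the position was 0.99 for FSD1, 0.68 for PRODH1, 0.35 for bZIP1, 0.35 for TPS8, 0.49 for SWEET12, 0.23 for MCM6 and 0.19 for LHCA1. List medians were taken over the members called without quintuple replicate 1, at any fold. They were 0.56 over 20 nitrogen transporters, 0.54 over 8 senescence genes and 0.16 over 24 photosynthesis genes.

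**Figure D3:**
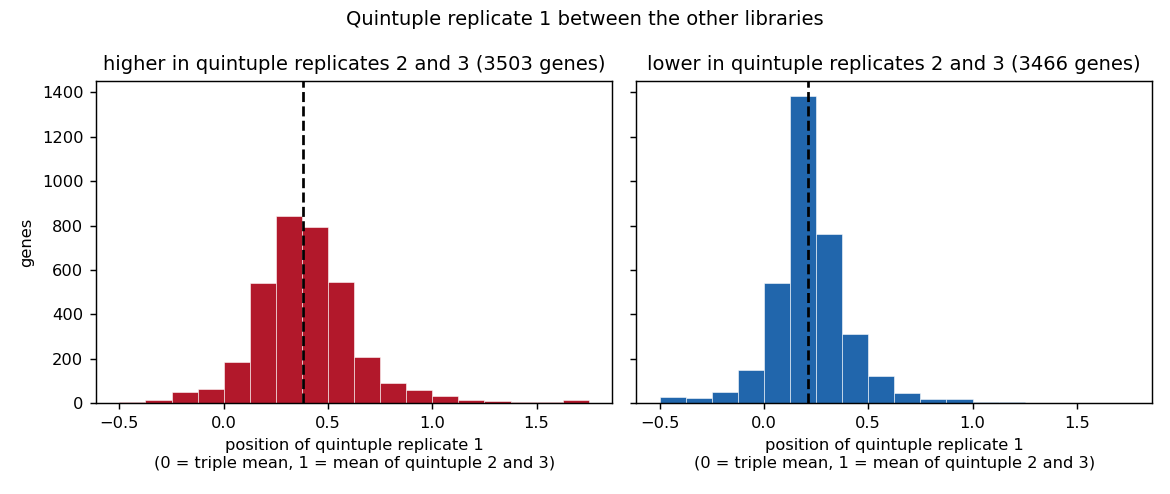
Number of genes by the position of quintuple replicate 1 between the triple mutant mean (0) and the mean of quintuple replicates 2 and 3 (1), for genes called at least 2-fold higher (left) or lower (right) without replicate 1; dashed lines mark the medians, 0.379 and 0.21. Values beyond the axis are counted in its end bins.

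The same 2 mutants were sampled in 3 other tissues, which share no library with the buds. Of the 1411 genes that rose in buds, 960 also rose in sink leaves, where 20.1% of all tested genes did, 771 in flowers, where 14.5% did, and 645 in source leaves, where 10.4% did. These make up 24.9%, 24.6% and 32.7% of the rises in those tissues. Of the 143 falls, 74 were shared with sink leaves, 47 with flowers and 37 with source leaves, against 18.1%, 8.63% and 6.38% of all tested genes. In all 4 tissues 463 genes rose and 15 fell.

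Other differences between the mutants were larger or smaller in buds than elsewhere, by a test of the interaction of genotype and tissue over 24 mutant libraries. Its model shared a single spread per gene over all groups of genotype and tissue, although the quintuple bud libraries were less alike than the triple ones. The p-values of this test therefore do not rest on the spread of the bud libraries alone. Against flowers 2113 of 22622 genes passed (9.34%), against source leaves 401 (1.77%) and against sink leaves 206 (0.911%). Without quintuple bud replicate 1 these counts were 5674, 2011 and 1163, and without any 1 of the other bud libraries they were 1163 to 1457, 97 to 265 and 16 to 52.

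FSD1 led the interaction against both leaf types. On the scale of all 36 libraries, quintuple buds held 207, 205 and 218 CPM and triple buds 3.27, 10.7 and 4.98 CPM. Flowers held 349.5, 301 and 362 CPM in the quintuple and 101, 86.6 and 94.9 CPM in the triple mutant. Source leaves held 378, 603 and 433 CPM in the quintuple and 817, 742 and 720.1 CPM in the triple mutant. Sink leaves held 504, 585 and 659 CPM in the quintuple and 374, 514 and 477 CPM in the triple mutant. Buds were thus the lowest of the quintuple tissues. Leaves were thus high in both mutants, and the bud difference exceeded that in source leaves by 5.75 ± 0.41 on the log2 scale (adjusted p = 3.29e-07), that in sink leaves by 4.72 ± 0.41 (adjusted p = 7.45e-06) and that in flowers by 3.21 ± 0.40 (adjusted p = 0.000107). USPL1 (AT1G49320), a gene related to seed proteins, was at 27.7, 87.5 and 122 CPM in quintuple and 1.19, 2.37 and 1.71 CPM in triple buds but at 0.31, 0.453 and 1.05 and 0.951, 1.04 and 1.89 CPM in source leaves. BOR1 (AT2G47160), the borate exporter gene of xylem loading, was higher in quintuple buds (144, 324 and 448 CPM against 60.8, 86.8 and 52.7 CPM) and lower in quintuple sink leaves (29, 31.4 and 16.4 CPM against 44.9, 37 and 44 CPM). SVP (AT2G22540), a repressor of flowering, was at 42, 47.9 and 56.1 CPM against 39.2, 35.5 and 37.2 CPM in buds and at 12.9, 14.7 and 21 CPM against 1.52, 2.01 and 1.99 CPM in flowers, so its mutant difference was smaller in buds.

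**Figure D4:**
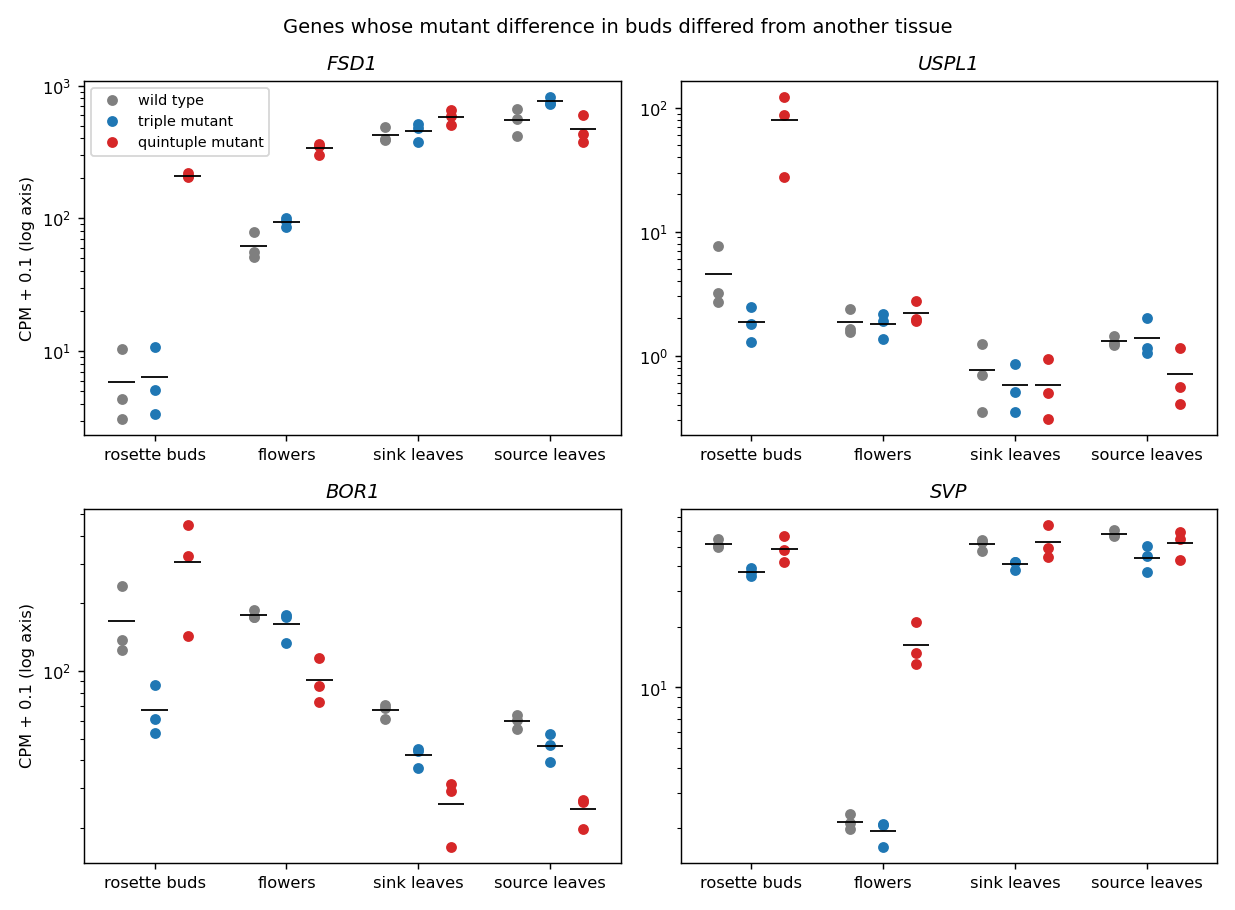
Level of FSD1, USPL1, BOR1 and SVP (CPM + 0.1, log axis, scale of all 36 libraries) in rosette buds, flowers, sink leaves and source leaves of the wild type, triple mutant and quintuple mutant, 1 point per library and a line at each mean of 3. FSD1 and USPL1 are higher in quintuple buds than in triple and wild-type buds, and FSD1 is higher still in quintuple flowers and leaves. Against the triple mutant, BOR1 is higher in quintuple buds and lower in quintuple leaves, and SVP differs most in flowers.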

How the data were processed

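RNA from rosette buds was extracted with Trizol, and 500 ng entered a stranded poly-A library kit, per the labels' protocols. The submitters' processing notes name the TAIR10 build, Salmon 0.7.2, SAMtools 0.1.18, R 3.5.1, edgeR and DESeq2, with no role or order. The authors deposited whole-number counts for 28775 loci in 1 table per mutant and tissue, which were joined on locus. The wild-type columns of paired tables were identical in 12 of 12 cases and were used once. Symbols came from RefSeq's TAIR10.1 gene table, which held 28009 of the loci.

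The 6 mutant bud libraries were fitted with edgeR 4.0.16 (TMM scaling, filterByExpr, quasi-likelihood test, Benjamini-Hochberg adjustment over all genes tested, R 4.3.3). limma 3.58.1 and DESeq2 1.42.0 served as alternatives. The fit was tested on simulated data in which both groups shared the same spread per gene and no library was set apart. That test does not cover a group in which a library stands apart. Interactions used 24 mutant libraries. CPM values were computed from the deposited counts. Members and gene lists were chosen with earlier results of these data known; 514 of 521 listed loci were kept, whose symbols the gene table gives to them. Genes were named by a fixed rule: 25 genes of the bZIP, SWEET, BRC1 and target groups, the 10 largest rises and falls and the 6 smallest p per direction among called genes without overlap and with 2 CPM or more, up to 5 members of each list with a call, and the 5 smallest p of each interaction; other list members, and USPL1, BOR1 and SVP among the last, were picked for description. The labels call the replicates biological and say no more of their origin. Intervals and floors (3 counts over a group) cover counting error only, and a fold against few counts depends on depth.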

Additional observations from a re-analysis of the deposited data

Results flagged for a closer look

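The difference between the mutants in buds departed from that in another tissue for 2113 genes against flowers, 206 against sink leaves and 401 against source leaves, by the interaction test over 24 libraries. Each value below is the log2 difference in buds minus that in the other tissue, with its adjusted p from edgeR.

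Against flowers, the 5 genes of smallest p were SVL3 (AT3G20520), a glycerophosphodiesterase-like gene, at 6.60 (5.84e-07), AT1G12160 at -2.46 (4.3e-06), AT1G54010 at -5.16 (6.83e-06), SVP at -2.75 (1.72e-05) and AT2G41178 at -2.63 (1.74e-05). SVL3 was at 3.74, 2.6 and 3.49 CPM in quintuple and 118, 80.1 and 98.8 CPM in triple flowers, and under 2 CPM in every mutant bud library on the same scale; its log2 difference was -4.88 in flowers and 1.74 in buds. The others were higher in quintuple than in triple flowers, as AT1G54010 shows, with 40.6, 31.9 and 38.6 CPM against 1.33, 1.41 and 1.17 CPM. FSD1 stood at 3.21 against flowers.

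Against sink leaves, they were FSD1 at 4.72, CKX1 (AT2G41510), a cytokinin oxidase gene, at -2.46, BOR1 at 2.93, AT5G52450 at -1.72 and AT3G05830 at -1.502, the last 4 each at an adjusted p of 0.0123. CKX1 was at 17.5, 12.5 and 19.2 CPM in quintuple and 1.757, 1.22 and 1.2 CPM in triple sink leaves.

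Against source leaves, they were FSD1 at 5.75, USPL1 at 6.60 (0.000518), IAA27 (AT4G29080), an auxin repressor gene, at 3.01 (0.000793), AT3G27400 at 3.39 (0.00338) and BOR1 at 3.14 (0.004). IAA27 was at 16.2, 12 and 19.2 CPM in quintuple and 70.4, 50.6 and 52.8 CPM in triple source leaves, against 127, 225 and 226 and 85.4, 102 and 78 CPM in buds.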

How the results depend on the processing

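In the 6-library comparison the counts of genes called stayed within 1.5 times of 1554 under RLE or upper quartile scaling, both other filters on low counts and without organelle genes. DESeq2 called 7855 genes (4455 higher, 3400 lower), limma voom with sample quality weights 14852 (7395 and 7457), a fit with all 9 bud libraries 7931 (4704 and 3227) and one with 24 mutant libraries 8254 (4328 and 3926). Leaving out 1 library gave 0 to 13583 genes (0 to 6765 higher, 0 to 6818 lower), with 13583 without quintuple replicate 1 and 0 without any of the other 5. The cause was not tested; the voom weight was 0.105 for quintuple replicate 1, 0.364 for replicate 3 and 1.42 to 4.35 for the others. With a replicate block 297 genes were called (292 higher, 5 lower). Replicate numbers did not pair the samples: deviations from the group means correlated at 0.0387, 0.0912 and -0.0412 for equal numbers, and of the 6 libraries only triple replicate 1 and quintuple replicate 2 correlated best with their own number.

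Of 87 named genes called, all 87 kept their call under DESeq2, voom, the fit with all 9 bud libraries, the one without organelle genes and the one without quintuple replicate 1. The others kept 85 to 86, except that 72 did under RLE scaling, 30 with the replicate block and 0 without any 1 of the other 5 libraries. Reversed signs were seen only in genes not called from 6 libraries: bZIP2 (0.016) and bZIP63 (0.13) under voom and AT1G12160 (-0.012) with 24 mutant libraries. Leaving out 1 library also moved AT1G12160 from -0.028 to 0.11, AT1G54010 from -0.83 to 0.047 and SWEET13 from -0.56 to 0.12.

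The gene list counts without quintuple replicate 1 were chosen after seeing the data. They stand beside 32.7% of all genes that passed as higher and 33% that passed as lower. Higher and lower calls in the lists were 2 and 1 for S1 bZIP, 3 and 0 for C group bZIP partners, 7 and 1 for sucrose and hexose carriers, 4 and 1 for sucrose cleavage and 10 and 2 for trehalose pathway. Next, they were 2 and 5 for galactinol, raffinose and inositol, 2 and 12 for starch synthesis and breakdown, 6 and 6 for nitrogen and amino acid metabolism, 19 and 1 for nitrate, ammonium and amino acid transporters and 6 and 5 for cytokinin response and turnover. The hormone and bud lists gave 5 and 3 for auxin response, 4 and 1 for gibberellin synthesis and inactivation, 7 and 1 for strigolactone synthesis and signalling, 16 and 5 for abscisic acid and dehydration and 7 and 2 for bud dormancy and branching. The counts were 9 and 6 for shoot and axillary meristem, 3 and 8 for flowering time and inflorescence, 1 and 7 for floral organ identity, 0 and 9 for DNA replication and 0 and 13 for cyclin, CDKB and cytokinesis. There were 0 and 11 for cytosolic ribosomal proteins, 0 and 24 for nuclear photosystem, Rubisco and Calvin cycle, 0 and 12 for flavonoid and anthocyanin, 10 and 0 for aliphatic glucosinolate and 8 and 0 for senescence. The last gave 4 and 0 for suberin, 5 and 2 for xylem and secondary wall and 4 and 0 for phloem.

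The interaction counts were 2125, 219 and 401 with RLE scaling and 2026, 145 and 333 with the replicate block, for flowers, sink leaves and source leaves. Leaving out 1 bud library gave 1163 to 5674, 16 to 1163 and 97 to 2011. Low counts limit SWEET, floral and anther genes: of 11 anther genes 2 had enough counts to be tested. Only 3 libraries per group, with 1 apart, limit every fold.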

Other observations

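Genes of copper and iron supply were looked up after the level of FSD1 had been seen, so what follows is a description of genes chosen after values were known. Iron superoxide dismutase and the copper/zinc enzymes CSD1 and CSD2 can stand in for each other when copper is scarce, and the microRNA miR398 targets the transcripts of the copper enzymes. The transcript of MIR398b (AT5G14545) was at 3.05, 7.29 and 22.9 CPM in the quintuple mutant and 0.0494, 0.399 and 0.145 CPM in the triple mutant (adjusted p = 0.0455). It rose in all 3 quintuple libraries, least in replicate 1, whereas MIR398c (AT5G14565) was at 23.4, 35.2 and 124 CPM against 10.5, 14.9 and 16.5 CPM (adjusted p = 0.0691). CSD1 (AT1G08830) was at 219.9, 168 and 105 CPM against 329, 352 and 383 CPM (adjusted p = 0.0534), CSD2 (AT2G28190) at 146, 79.7 and 44.5 CPM against 208, 239 and 237 CPM (adjusted p = 0.0697) and their copper chaperone gene CCS (AT1G12520) at 79.3, 81.5 and 60.1 CPM against 102, 109.5 and 109.9 CPM. None of these 3 passed, and none overlapped between the mutants.

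CCH (AT3G56240), a copper chaperone gene of senescing tissue, rose from 17.44, 33.5 and 20.04 CPM to 106, 245 and 597 CPM, and the reductase gene FRO4 (AT5G23980) rose from 0.642, 0.748 and 1.16 to 1.91, 2.88 and 3.13 CPM. ZIP2 (AT5G59520), a metal transporter gene, had no count over the 3 triple libraries and 75 over the quintuple libraries, at least 23.4-fold higher with a floor of 3 counts over the group. MIR408 (AT2G47015) was at 9.7, 14.1 and 38.8 CPM against 10.8, 8.67 and 9.83 CPM and did not pass (adjusted p = 0.136). The copper importer genes COPT1 (AT5G59030), at 56.1, 48.2 and 36.1 CPM against 57.2, 55.2 and 57.3 CPM, and COPT5 (AT5G20650), at 77.9, 88.6 and 93.9 CPM against 77.5, 76.2 and 75.5 CPM, did not pass either (adjusted p = 0.238 and 0.213), and COPT2 (AT3G46900) had 2 counts against 5. The reductase gene FRO3 (AT1G23020) (adjusted p = 0.054) and the plastocyanin genes PETE1 (AT1G76100) and DRT112 (AT1G20340) (adjusted p = 0.0922 and 0.128) also missed the threshold, with log2 differences of 1.53, -1.12 and -1.13.

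Among genes of iron deficiency, the 4 bHLH factor genes BHLH38 (AT3G56970), BHLH39 (AT3G56980), BHLH100 (AT2G41240) and BHLH101 (AT5G04150) had no count in any triple bud library, and 21, 17, 32 and 47 counts over the quintuple libraries. By the same floor these were at least 6.54-fold, 5.30-fold, 9.97-fold and 14.7-fold higher. All 4 were below the count filter and were not tested. BHLH101 was at 0.0424, 0.479 and 1.71 CPM in quintuple replicates 1, 2 and 3 and at 0, 0 and 0 CPM in the wild type.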
